A study of Mus musculus with 2 samples.

Results

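The genes described here are those that copy DNA and drive the cell cycle: the origin-binding and MCM helicase genes, the cyclins of types A, B, D and E, the cyclin-dependent kinases (CDKs) with their inhibitors, and the E2F factors with Rb1. They were taken by a rule on gene symbols that was set with earlier results of these data known. Where a gene had several probe sets, the one whose log2 signal averaged highest across the arrays stood for it. The rule found 81 genes among the 18193 that had a probe set of their own. Of these, 75 could be measured in osteoclasts and in macrophages alike, 1 gave a measurable signal only in osteoclasts, and 5 gave none.

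The study grew mouse bone marrow cells of strain C57/Black6 into osteoclasts, the multinucleate cells that resorb bone, and into macrophages. Marrow of mice aged 8 weeks was kept for 3 days in M-CSF, the growth factor of macrophages, and the cells that adhered served as progenitors of both cell types. Over 6 further days, as the sample labels give it, osteoclasts received RANKL, the cytokine that directs their formation, in addition to M-CSF, while macrophages received M-CSF alone. The labels do not say how many mice were used or whether both cultures came from the same ones. Each group is 1 Affymetrix array of total RNA, so no test was possible, no p-value is given, and differences are read by size.

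DNA replication begins with licensing, in which the origin recognition complex, Cdc6 and Cdt1 load the ring of MCM2 to MCM7 onto DNA. Cyclin D kinases, switched on by growth factors such as M-CSF, release E2F factors from the Rb protein, E2F turns on the genes of replication, and cyclin E with Cdk2 starts synthesis. Cyclin A and cyclin B kinases then carry the cell into mitosis. Osteoclasts form by fusion of precursors and do not divide once fused.

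Signals were lower in the osteoclast array for most probe sets, with a median log2 difference of -0.43 over the 23708 probe sets that both arrays measured. Differences below are log2 of osteoclast over macrophage relative to this shift, and "as deposited" marks values without that adjustment. A signal counted as measured above a floor of 14.4 in osteoclasts and 17.0 in macrophages, the 40th percentile of each array, and a lower signal was raised to it. The one error these data hold is how far probe sets for 1 gene differ, an SD of 0.49 on the log2 scale over 5435 genes and of 0.60 over the 43 genes described here that had at least 2 probe sets measured in both arrays. Markers of each cell type were read first: 11 of 11 osteoclast markers were at least 2-fold higher in osteoclasts (summed signal 39205 in osteoclasts and 1037 in macrophages), and 5 of 10 macrophage markers were at least 2-fold lower there (summed signal 23286 in osteoclasts and 45044 in macrophages). Xist, an RNA of female cells, had a signal of 22.1 in osteoclasts and 1872 in macrophages, and Y-linked Eif2s3y had 321 in osteoclasts and 0.571 in macrophages, so the treatment and the animals cannot be told apart. In cultures measured as a whole, fewer cells of a type and less RNA per cell cannot be told apart either.

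The 6 genes of the MCM ring, both E cyclins, 7 of 8 E2F genes and Cdc6 had lower signals in osteoclasts relative to the shift, while cyclin A2, cyclin B2, Cdc20 and Cdc25c were above it. Orc2, Orc3, Orc4, Cdk4 and Cdk6, which also act early in the cycle, were above it too, and Cdc25b was below it. Other probe sets of Orc3 and Orc4 reached below the shift. Cyclin D1, cyclin D2 and cyclin E1 stood lowest among the genes with a role in starting replication, and cyclin B2 stood among the highest. Of the 76 measured genes, 8 were at least 2-fold lower, where 6.99% of all 13647 measured genes were, and 4 were at least 2-fold higher, where 7.11% were. As deposited, 26 were at least 2-fold lower and 0 were at least 2-fold higher, against 17.5% and 3% of all measured genes. In percent, 10.5% of the measured genes described here were 2-fold lower relative to the shift and 5.26% were 2-fold higher, so the count of higher genes was near the background. The median difference was -0.25, compared with 0.00 over all measured genes, and 49 of the 76 (64.5%) lay below the shift, compared with 49.7% of all measured genes. Most of the pattern therefore consisted of differences under 2-fold, and it is described by role below.

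**Figure D1:**
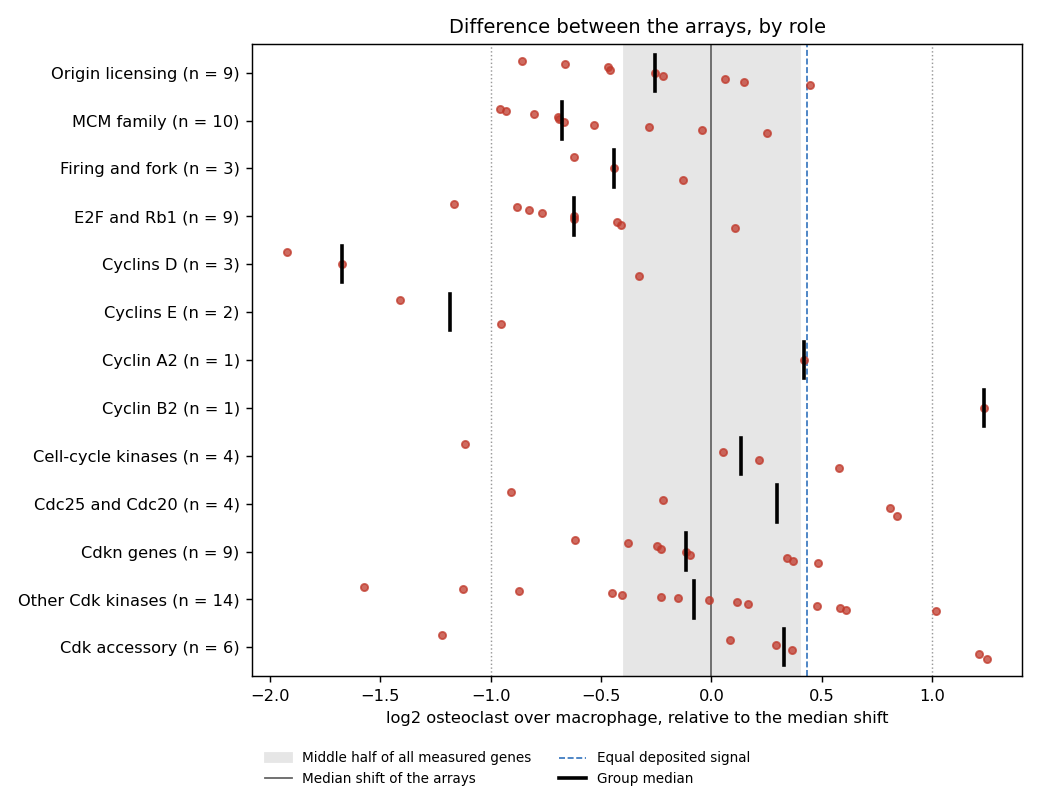
Log2 difference of osteoclast over macrophage relative to the median shift for 75 genes measured in both arrays, by role. Each point is a gene, the bar is the median of the role, the grey band spans the quartiles of all measured genes (-0.39 and 0.40), dotted lines mark 2-fold, and the dashed line marks equal deposited signals. Both E cyclins and all D cyclins but Ccnd3 (-0.33) lie left of the band, and cyclin B2 lies to its right.

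The 10 genes with the most negative differences were, in order, Ccnd1, Ccnd2, Cdk20, Ccne1, Cdk5r1, E2f7, Cdk14, Cdk2, Mcm3 and Ccne2. The 10 with the most positive differences were Cdk2ap2, Ccnb2, Cdk5rap2, Cdk8, Cdc25c, Cdc20, Cdk12, Cdk16, Cdk4 and Cdkn1b. Neighbours in both orders differed by less than the SD of 0.49 between probe sets. Ccna1, Ccnb3, Cdk3, Cdk5r2 and Cdkn2a were below the floor in both arrays and have no difference.

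Origin licensing genes lay on both sides of the shift, and Cdc6 was the lowest. Cdc6, the ATPase that brings the MCM ring to origins, had a signal of 140 in osteoclasts and 344 in macrophages, a difference of -0.86. Cdt1, its partner in loading, had 1522 in osteoclasts and 2823 in macrophages, at -0.46, while its other measured probe set gave -0.051. Gmnn, which encodes geminin, the inhibitor that binds Cdt1, had 991 in osteoclasts and 2120 in macrophages, at -0.66. Orc1, the largest subunit of the origin recognition complex, had 49.5 in osteoclasts and 92.6 in macrophages (-0.47), while its other measured probe set gave 0.20. The other 5 Orc genes lay between -0.25 (Orc5) and 0.44 (Orc2), and Orc2 had 278 in osteoclasts and 275 in macrophages. Probe sets measured in both arrays ran from -1.09 to 0.40 for Orc3 and from -0.35 to 0.15 for Orc4. Of the 9 licensing genes, 6 lay below the shift, none was 2-fold apart, and the median was -0.25. As deposited, Cdc6 and Gmnn were at least 2-fold lower, 2 of 9 genes (22.2%), near the 17.5% of all measured genes.

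All 6 genes of the ring that unwinds DNA, Mcm2 to Mcm7, were lower in osteoclasts, between -0.96 and -0.67, with a median of -0.75. Mcm2 had a signal of 332 in osteoclasts and 853 in macrophages. Mcm3 had 531 in osteoclasts and 1393 in macrophages. Mcm4 had 665 in osteoclasts and 1447 in macrophages. None of the 6 reached 2-fold relative to the shift. All 6 did as deposited, between -1.39 and -1.10, where 17.5% of all measured genes were 2-fold lower. Mcm5 had 1161 in osteoclasts and 2537 in macrophages. Mcm6 had 1521 in osteoclasts and 3586 in macrophages. Mcm7 had 1552 in osteoclasts and 3325 in macrophages. In each of the 6, every probe set measured in both arrays lay below the shift, from -1.48 in Mcm4 to -0.28 in Mcm2. Genes with MCM names outside the ring were nearer the shift. Mcm10, which acts when the loaded helicase is switched on, differed by -0.28, with its other probe sets up to 0.78. Mcm8 and Mcm9, which act together in recombination repair, differed by -0.042 and -0.53. Mcm3ap, whose product is known for mRNA export and is no helicase subunit, differed by 0.25.

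Genes that fire origins and follow the fork were also below the shift. Pcna, the sliding clamp of the polymerases, had a signal of 4651 in osteoclasts and 9676 in macrophages (-0.62). Cdc45, which joins the MCM ring in the active helicase, had 115 in osteoclasts and 211 in macrophages (-0.44). Cdc7, the kinase that phosphorylates the ring, had 97.4 in osteoclasts and 144 in macrophages (-0.13).

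**Figure D2:**
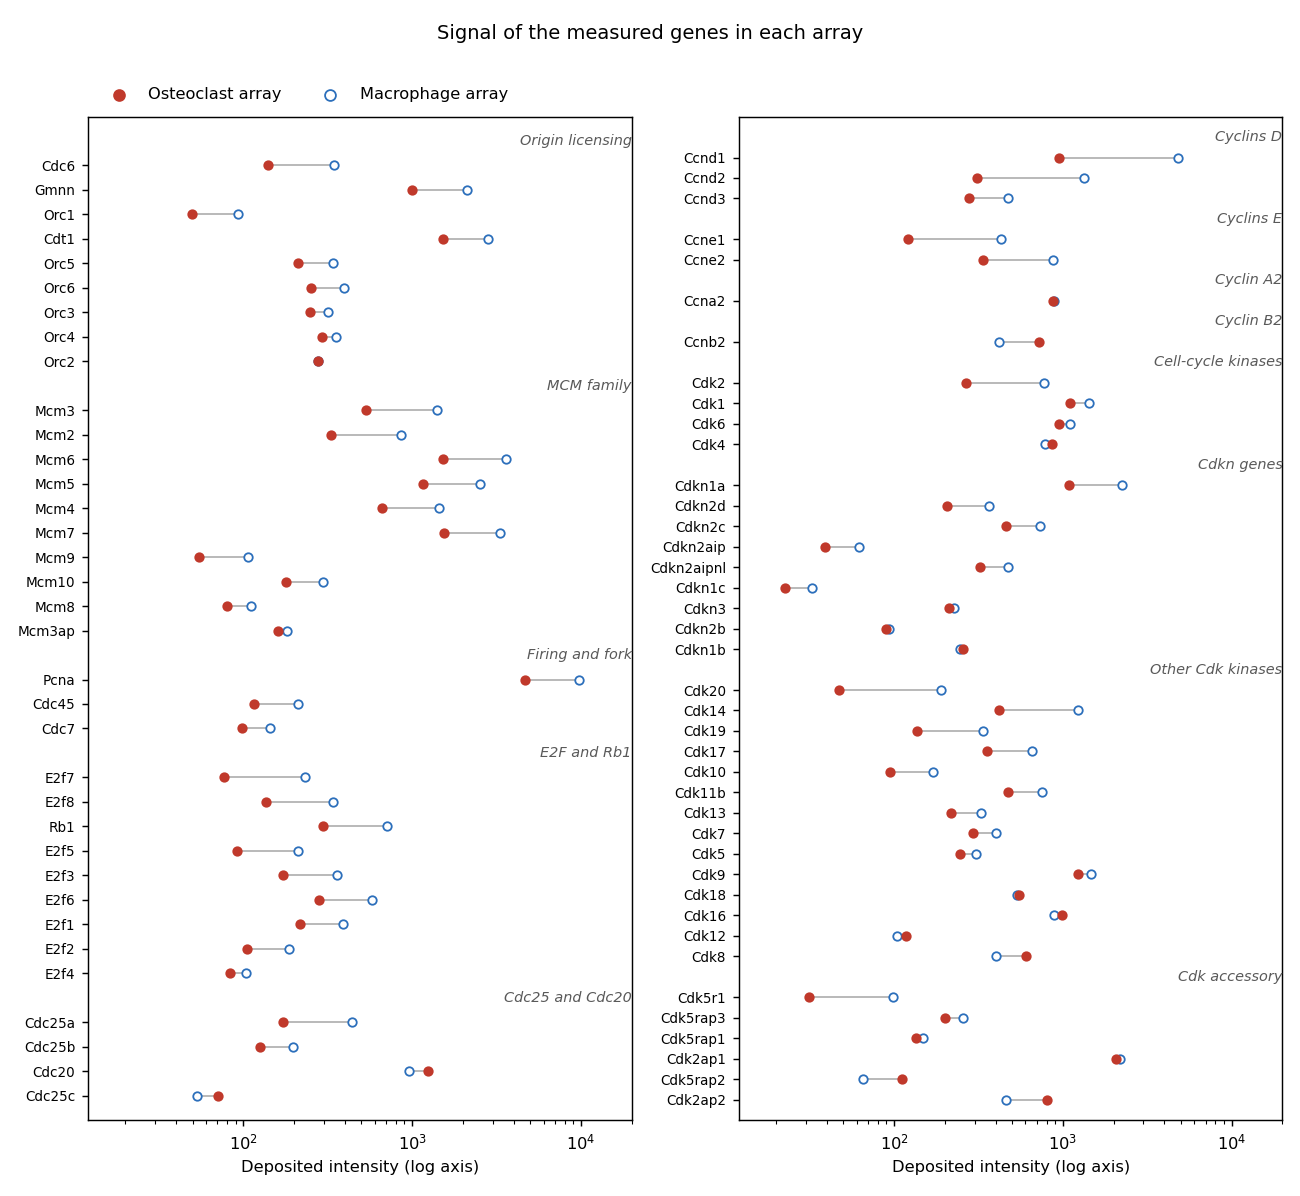
Deposited intensity of 75 genes in the osteoclast array (filled) and the macrophage array (open), on a log axis, grouped by role and ordered by difference within each role. Mcm2 to Mcm7 show gaps of like width, and Ccnd1 shows a signal of 945 in osteoclasts against 4828 in macrophages.

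E2F factors read the state of Rb and act on replication genes. Of the 8 E2F genes, 7 lay below the shift, and the median was -0.62. E2f7, an atypical E2F that represses, had a signal of 76.8 in osteoclasts and 233 in macrophages (-1.17), the only E2F gene past 2-fold. E2f8, its close relative, had 136 in osteoclasts and 337 in macrophages (-0.88), but its other probe set gave 0.21. Among the activators, E2f1 had 215 in osteoclasts and 391 in macrophages (-0.43, with its other probe set measured in both arrays at -0.046), E2f2 differed by -0.41, and E2f3 had 172 in osteoclasts and 358 in macrophages (-0.62). E2f2 and E2f3 thus lay on the same side as the MCM ring on every probe set measured in both arrays, and E2f1 lay close to the shift on one of its probe sets. E2f6, a repressor that does not bind Rb, had 280 in osteoclasts and 581 in macrophages (-0.62). E2f4, which acts mainly in repressor complexes, had 83.1 in osteoclasts and 104 in macrophages (0.11, or -0.32 as deposited). E2f5 had 92.1 in osteoclasts and 211 in macrophages (-0.77), with its other probe sets from -0.29 to 2.88, so its probe sets disagree on direction. Rb1, the retinoblastoma protein that holds E2F, was itself lower, with 295 in osteoclasts and 704 in macrophages (-0.82).

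Promoters of the MCM ring and of E2F genes are shown because E2F is known to act on them. RefSeq windows from 250 bases before to 50 bases after the gene start (build GRCm38.p6) were found for 65 of the 81 genes and searched on both strands for the E2F consensus (TTTCCCGC, TTTCGCGC, TTTGCCGC or TTTGGCGC). It was present in 4 of the 5 ring genes with a window (80.0%), in 3 of 6 E2F genes and in 4 of 8 licensing genes. The same letters occurred in 2.60% of all 27025 genes with a window and in 4.36% of the 11055 genes with a probe set above the floor. Mean GC content was 55.9% in the windows of the ring genes, 68.3% in those of the E2F genes, 61.2% in those of the licensing genes, 53.6% in those of all genes and 60% in those of genes with a probe set above the floor. Shown are Mcm3 (chr1:20820263-20820562, minus strand), Mcm5 (chr8:75109259-75109558, plus strand), Mcm6 (chr1:128359656-128359955, minus strand) and E2f7 (chr10:110745189-110745488, plus strand), read 5′ to 3′ along the gene. Capitals mark the E2F consensus, the CHR elements TTTGAA or TTCGAA, and the CCAAT box, on either strand.
Mcm3 promoter: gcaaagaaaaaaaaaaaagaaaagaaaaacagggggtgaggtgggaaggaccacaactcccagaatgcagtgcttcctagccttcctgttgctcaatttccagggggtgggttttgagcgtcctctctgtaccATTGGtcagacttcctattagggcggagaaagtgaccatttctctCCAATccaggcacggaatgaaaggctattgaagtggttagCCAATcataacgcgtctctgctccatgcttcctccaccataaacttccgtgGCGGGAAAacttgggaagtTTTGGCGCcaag
Mcm5 promoter: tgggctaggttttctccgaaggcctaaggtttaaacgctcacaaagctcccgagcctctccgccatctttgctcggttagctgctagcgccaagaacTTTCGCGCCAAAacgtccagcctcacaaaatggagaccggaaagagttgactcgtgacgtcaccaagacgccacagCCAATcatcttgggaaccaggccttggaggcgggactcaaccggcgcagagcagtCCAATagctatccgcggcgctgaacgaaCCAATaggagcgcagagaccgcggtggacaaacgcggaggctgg
Mcm6 promoter: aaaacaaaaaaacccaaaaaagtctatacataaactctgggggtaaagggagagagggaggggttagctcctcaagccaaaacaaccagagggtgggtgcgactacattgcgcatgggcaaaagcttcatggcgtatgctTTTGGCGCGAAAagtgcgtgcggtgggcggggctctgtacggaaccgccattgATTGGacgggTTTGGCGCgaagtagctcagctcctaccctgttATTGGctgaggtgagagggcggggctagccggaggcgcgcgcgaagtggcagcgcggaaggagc
E2f7 promoter: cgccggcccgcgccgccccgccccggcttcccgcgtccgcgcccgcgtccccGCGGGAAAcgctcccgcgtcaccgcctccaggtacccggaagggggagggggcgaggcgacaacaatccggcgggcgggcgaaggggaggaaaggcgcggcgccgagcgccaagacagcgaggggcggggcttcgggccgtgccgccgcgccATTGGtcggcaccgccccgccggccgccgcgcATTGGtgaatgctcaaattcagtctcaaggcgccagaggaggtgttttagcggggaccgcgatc
In Mcm5 and in Mcm6, 2 E2F matches on opposite strands overlap and form 1 run of capitals, which begins 153 bases before the start in Mcm5 and 110 bases before it in Mcm6. In Mcm3, both E2F matches lie after the start, at positions 20 and 39. The single match of E2f7 lies 198 bases before the start. A match describes letters and is no evidence of binding.

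Among the cyclins, D1 and D2 were lowest. The D cyclins are the partners of Cdk4 and Cdk6 that answer to growth factors. Ccnd1 had a signal of 945 in osteoclasts and 4828 in macrophages, a difference of -1.92, and its 3 probe sets lay between -2.08 and -1.80. Ccnd2 had 309 in osteoclasts and 1330 in macrophages (-1.67), and all of its 7 probe sets were below -1, between -1.74 and -1.11. Ccnd3 had 278 in osteoclasts and 471 in macrophages (-0.33), and its other probe set measured in both arrays gave -0.73. On the probe sets used, Ccnd3 differed from Ccnd1 and Ccnd2 by more than the spread between probe sets. The nearest probe sets of Ccnd2 (-1.11) and Ccnd3 (-0.73) were closer than that spread. Ccnd1 and Ccnd2 stayed past 2-fold under all 8 alternatives.

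Markers of stromal cells, which a marrow culture can hold, lay on both sides of the shift. Of 7 stromal and osteoblast markers with a probe set, 5 lay below the shift, 1 (Tnfrsf11b, -1.20) was 2-fold lower and 1 (Dcn, 1.55 as a bound) was 2-fold higher, and their summed signal was 6068 in osteoclasts and 12066 in macrophages. The brightest lay below the shift: Col1a2 with 2895 in osteoclasts and 5744 in macrophages (-0.56), Sparc with 1535 and 3705 (-0.84), and Col1a1 with 1381 and 2078 (-0.16). Lepr and Dcn, which lay above it, were the dimmest. Lepr had 29.3 in osteoclasts and 27.8 in macrophages, and Dcn had 37.0 in osteoclasts and 15.3 in macrophages. Their part in the cyclin D values was not tested.

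E cyclins, which start synthesis with Cdk2, were lower as well. Ccne1 had 120 in osteoclasts and 432 in macrophages (-1.41), but its second probe set had 119 in osteoclasts and 199 in macrophages (-0.30), so the size of its difference depends on the probe set. Ccne2 had 336 in osteoclasts and 878 in macrophages (-0.95). Ccna2, cyclin A2, which acts from synthesis up to mitosis, had 875 in osteoclasts and 885 in macrophages (0.42, or -0.016 as deposited), and its other probe set gave 0.50. Ccnb2, cyclin B2, a partner of Cdk1 in mitosis, had 726 in osteoclasts and 417 in macrophages (1.23, or 0.80 as deposited). The gap of 2.64 between cyclin B2 and cyclin E1, and of 3.15 between cyclin B2 and cyclin D1, does not depend on the shift. The first gap does depend on the probe set, and it would be smaller with the second one of Ccne1 (-0.30). Ccnb1ip1, a ligase that binds cyclin B1 and matched the rule by name, was measured in osteoclasts only, at 15.7, close to the floor.

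Cdk4 and Cdk6 were less far apart between the arrays than Ccnd1 and Ccnd2, and Cdk1 less than Ccnb2. On the probe sets used, Cdk2 lay between Ccne1 (-1.41) and Ccne2 (-0.95). Cdk2, the partner of cyclin E, had a signal of 266 in osteoclasts and 778 in macrophages (-1.12) and was past 2-fold in each of the 7 alternatives in which it could be read. Cdk4 and Cdk6, the partners of the D cyclins, lay above the shift. Cdk4 had 864 in osteoclasts and 780 in macrophages (0.58), with its probe sets from 0.15 to 0.71, and Cdk6 had 952 in osteoclasts and 1107 in macrophages (0.21, or -0.22 as deposited). Cdk1, the kinase of mitosis, had 1102 in osteoclasts and 1436 in macrophages (0.052, or -0.38 as deposited). Kinase and cyclin of a pair thus stood on the same side of the shift for Cdk2 with cyclin E, and on opposite sides for Cdk4 and Cdk6 with cyclin D1 and cyclin D2, although Cdk6 was on the same side as deposited.

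The Cdc25 phosphatases and Cdc20 lay on both sides of the shift. Cdc25a, the phosphatase that activates Cdk2, had 172 in osteoclasts and 437 in macrophages (-0.91), with its other probe set at -0.26. Cdc25b, which acts on Cdk1 at entry into mitosis, had 126 in osteoclasts and 198 in macrophages (-0.22). Cdc25c, which acts on Cdk1 at mitosis, had 70.3 in osteoclasts and 53.0 in macrophages (0.84), and its other probe set gave 0.68. Cdc20, which activates the anaphase-promoting complex, had 1247 in osteoclasts and 961 in macrophages (0.81), and its 3 probe sets lay between 0.81 and 1.00.

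The same promoter search was read for genes of mitosis. The CHR element, a sequence through which cell cycle genes are held off until late in the cycle, was present in the windows of Cdk1, Ccnb2 and Cdc20, in each together with a CCAAT box, and of these Cdk1 alone also held an E2F match. Both elements were present in 12 of the 65 genes described here that had a window (18.5%). Besides these 3 they were Mcm2 (-0.93), Mcm7 (-0.67), E2f2, E2f3, E2f8 (-0.88), Cdc45, Cdc25b, Cdk16 and Cdkn3, so genes below the shift held them as well. Matches were counted over all windows of a gene. In Mcm7, E2f2, E2f3 and Cdk16, which have more than 1, the elements may therefore lie in different windows. Counted in the same way, both elements occurred in 9.65% of all genes with a window and in 7.99% of those with a probe set above the floor. Shown are Cdk1 (chr10:69352863-69353162), Ccnb2 (chr9:70421505-70421804) and Cdc20 (chr4:118437294-118437593), all on the minus strand and read 5′ to 3′ along the gene, with capitals as above.
Cdk1 promoter: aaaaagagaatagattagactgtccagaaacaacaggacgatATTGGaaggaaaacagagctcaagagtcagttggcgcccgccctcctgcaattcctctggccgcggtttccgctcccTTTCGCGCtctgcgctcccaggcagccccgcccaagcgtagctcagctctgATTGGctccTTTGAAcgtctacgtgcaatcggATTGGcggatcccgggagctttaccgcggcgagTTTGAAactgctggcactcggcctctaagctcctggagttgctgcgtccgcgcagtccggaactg
Ccnb2 promoter: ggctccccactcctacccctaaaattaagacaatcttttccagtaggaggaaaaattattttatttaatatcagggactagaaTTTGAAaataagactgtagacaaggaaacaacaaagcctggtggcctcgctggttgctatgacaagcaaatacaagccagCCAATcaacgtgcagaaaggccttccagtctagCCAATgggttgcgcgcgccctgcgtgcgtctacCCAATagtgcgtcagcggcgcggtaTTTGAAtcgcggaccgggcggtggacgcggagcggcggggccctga
Cdc20 promoter: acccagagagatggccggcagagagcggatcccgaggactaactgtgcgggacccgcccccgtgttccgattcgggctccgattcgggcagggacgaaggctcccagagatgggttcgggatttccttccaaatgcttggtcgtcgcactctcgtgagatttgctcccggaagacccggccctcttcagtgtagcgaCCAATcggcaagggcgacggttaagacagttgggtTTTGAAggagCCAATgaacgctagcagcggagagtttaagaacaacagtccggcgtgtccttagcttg
In Cdk1 the E2F match begins 131 bases and the CHR elements 71 and 15 bases before the start. In Cdc20 the CHR element begins 18 bases before the start, and in Ccnb2 one CHR element lies 167 bases before the start and the other at position 5 after it.

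**Figure D3:**
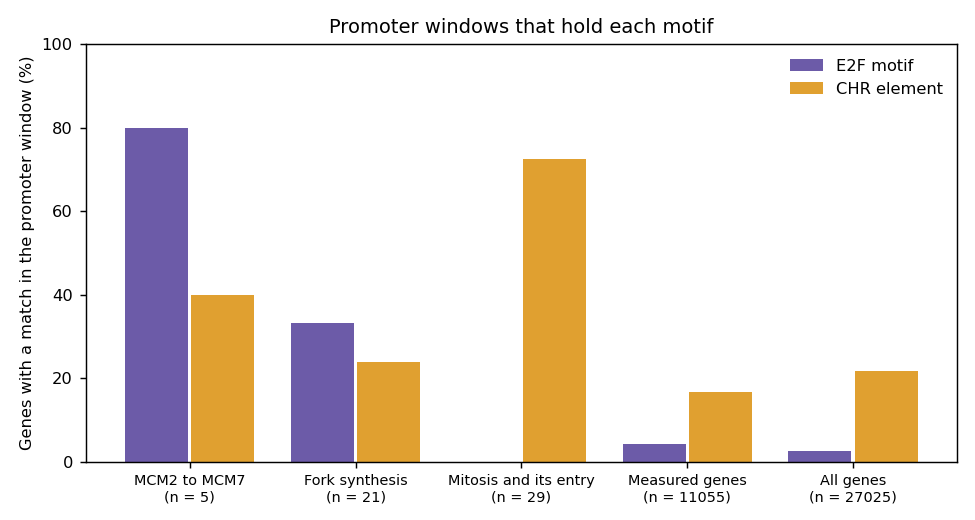
Percent of genes whose promoter window holds the E2F consensus or a CHR element, for the MCM ring, the lists of fork synthesis and mitosis, the genes measured here and all genes with a window. The E2F bar is tallest for the ring (80.0%) and the CHR bar for mitosis (72.4%).

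Of the 7 inhibitor genes of the p21 and INK4 families, 6 were measured, 4 of these lay below the shift, and none was 2-fold apart. Cdkn1a, which encodes p21, had 1080 in osteoclasts and 2237 in macrophages (-0.62) on the probe set used. Its other probe set had 76.0 in osteoclasts and 1914 in macrophages (-4.22), so both were lower, by sizes that differed by 3.60. Cdkn1b, which encodes p27, had 256 in osteoclasts and 247 in macrophages (0.48). Cdkn1c, which encodes p57, was dim, with 22.7 in osteoclasts and 32.8 in macrophages (-0.10). Among the INK4 genes, whose products bind Cdk4 and Cdk6, Cdkn2c had 459 in osteoclasts and 736 in macrophages (-0.25), Cdkn2d differed by -0.38 and Cdkn2b by 0.37. Cdkn3, a phosphatase that acts on Cdk2, differed by 0.34. Cdkn2aip, which encodes a partner of the tumour suppressor ARF, differed by -0.23, and Cdkn2aipnl by -0.12.

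**Figure D4:**
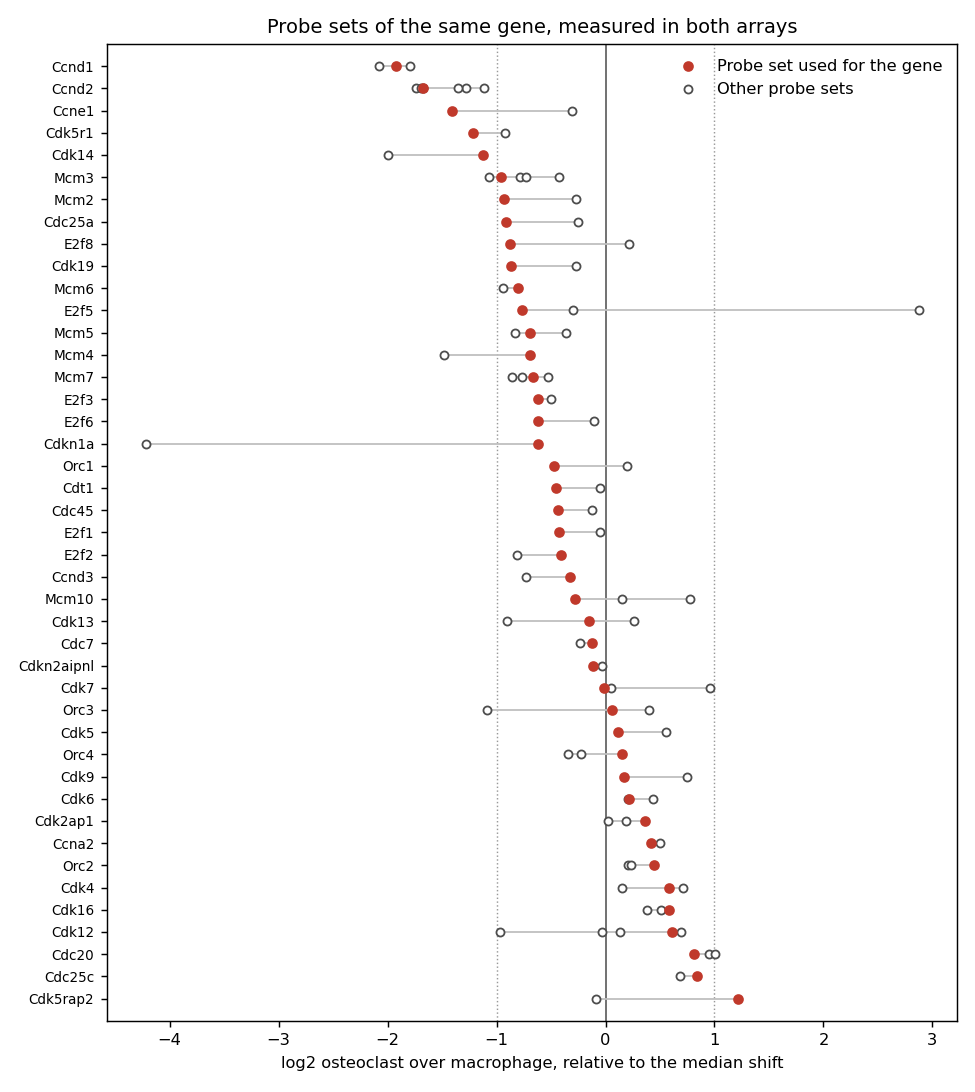
Log2 difference relative to the median shift for each probe set measured in both arrays, for the 43 genes with at least 2 such probe sets; filled points are the probe sets used. Ccnd1 and Ccnd2 lie wholly left of -1, while Cdkn1a and E2f5 span 3.60 and 3.64.

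Agreement between probe sets of a gene shows how far its value depends on the probe set. All were read on the same arrays, so it does not show how cultures or animals vary. In 33 of the 43 genes all probe sets lay on the same side of the shift, and in 10 they did not. The median span was 0.50, and 9 genes had a span over 1. These 10 were Orc1, Orc3, Orc4, Mcm10, E2f5, E2f8, Cdk5rap2, Cdk7, Cdk12 and Cdk13. All genes of the MCM ring, all D cyclins, Ccna2, Cdc20, Cdk4 and Cdk6 had all probe sets on the same side. So did Cdkn1a and Ccne1, although their spans were 3.60 and 1.11.

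CDKs outside the core cycle gave no common direction. The median of 14 measured kinases was -0.081, with 2 at least 2-fold lower (14.3%) and 1 higher (7.14%). Of all measured genes, 6.99% were lower and 7.11% higher by that size. Cdk20, the cell cycle-related kinase, had a signal of 47.5 in osteoclasts and 191 in macrophages (-1.57) on its 1 probe set. Cdk14, a partner of cyclin Y, had 420 in osteoclasts and 1236 in macrophages (-1.12), and its other probe set measured in both arrays gave -2.0. Cdk8 and Cdk19, alternative kinases of the Mediator complex, went opposite ways. Cdk8 had 603 in osteoclasts and 402 in macrophages (1.02, or 0.58 as deposited), and Cdk19 had 137 in osteoclasts and 338 in macrophages (-0.87). Among kinases of transcription, Cdk9 differed by 0.17. Cdk7 differed by -0.012, with probe sets measured in both arrays up to 0.96. Another of its probe sets, with 98.6 in macrophages and below the floor in osteoclasts, gave -2.34 as a bound. Cdk13 differed by -0.15 with probe sets from -0.90 to 0.26. Cdk12 differed by 0.61, and its probe sets ran from -0.96 to 0.69. Cdk11b differed by -0.23, Cdk10 by -0.41, Cdk5 by 0.12, Cdk16 by 0.58, Cdk17 by -0.45 and Cdk18 by 0.48. The other probe set of Cdk17, with 25.3 in osteoclasts and below the floor in macrophages, gave 1.00 as a bound.

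Accessory genes with CDK names contributed 3 of the 12 genes past 2-fold. Cdk2ap2 had 808 in osteoclasts and 459 in macrophages (1.25, or 0.82 as deposited). Cdk5rap2, a centrosome protein, had 112 in osteoclasts and 65.1 in macrophages (1.21), with its other measured probe set at -0.087. Cdk5r1, the p35 activator of Cdk5, had 31.5 in osteoclasts and 98.9 in macrophages (-1.22), with its other measured probe set at -0.92. Cdk2ap1 had 2077 in osteoclasts and 2180 in macrophages (0.36), and Cdk5rap1 and Cdk5rap3 differed by 0.29 and 0.083.

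Other genes of the cycle were read from lists made for this comparison. Among 28 measured genes of fork synthesis, 25 lay below the shift, with a median of -0.53. After adjustment for the shift 2 passed 2-fold on the lower side (7.14%, near the 6.99% of all measured genes) and none was 2-fold higher. As deposited, 14 were 2-fold lower (50%, against 17.5% of all measured genes). Pola1, the catalytic subunit of the priming polymerase, had 151 in osteoclasts and 430 in macrophages (-1.07). Timeless, which protects the fork, had 117 in osteoclasts and 321 in macrophages (-1.03). Nucleotide supply had a median of -0.24 over 9 genes, with Dck, the deoxycytidine kinase, at 836 in osteoclasts and 2892 in macrophages (-1.36). Partners of E2F and Rb had a median of -0.37 over 10 genes, none 2-fold apart. Tfdp1, the dimer partner of E2F, differed by -0.38, and Rbl1, which encodes the Rb relative p107, by -0.79.

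Genes of mitosis and its entry were mostly above the shift. Of 34 measured genes, 27 were above the shift, with a median of 0.42, on the probe set used for each gene. Probe sets of several of these genes lay on both sides of the shift, among them Bub1 (-0.48 to 0.47), Pttg1 (-0.74 to 0.30) and Top2a (-0.14 to 0.87). Those of others, such as Bub1b (0.71 to 0.77) and Cenpf (0.33 to 0.89), all lay above it. After the adjustment 3 genes of the list passed 2-fold on the higher side (8.82%, near the 7.11% of all measured genes) and none was 2-fold lower. As deposited the median was -0.017, so that their signals were about equal in both arrays before the adjustment. Of the list, 1 gene was 2-fold higher as deposited and 1 lower (2.94% each), against 3% and 17.5% of all measured genes. Espl1, which encodes separase, the protease that parts sister chromatids, had 279 in osteoclasts and 115 in macrophages (1.72). Cenpa, the centromere histone, had 653 in osteoclasts and 405 in macrophages (1.12). Ube2s, a ubiquitin enzyme of the anaphase-promoting complex, had 1924 in osteoclasts and 1235 in macrophages (1.07). The medians of mitosis and fork synthesis were 0.95 apart on the log2 scale, a 1.93-fold gap that does not depend on the shift. That gap does rest on the probe set used for each gene. In promoter windows the CHR element was present in 21 of 29 mitosis genes (72.4%) and in 5 of 21 fork synthesis genes (23.8%), and the E2F consensus in 0 of the mitosis genes and 7 of the fork synthesis genes (33.3%). Of all genes with a window, 21.7% held the CHR element.

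**Figure D5:**
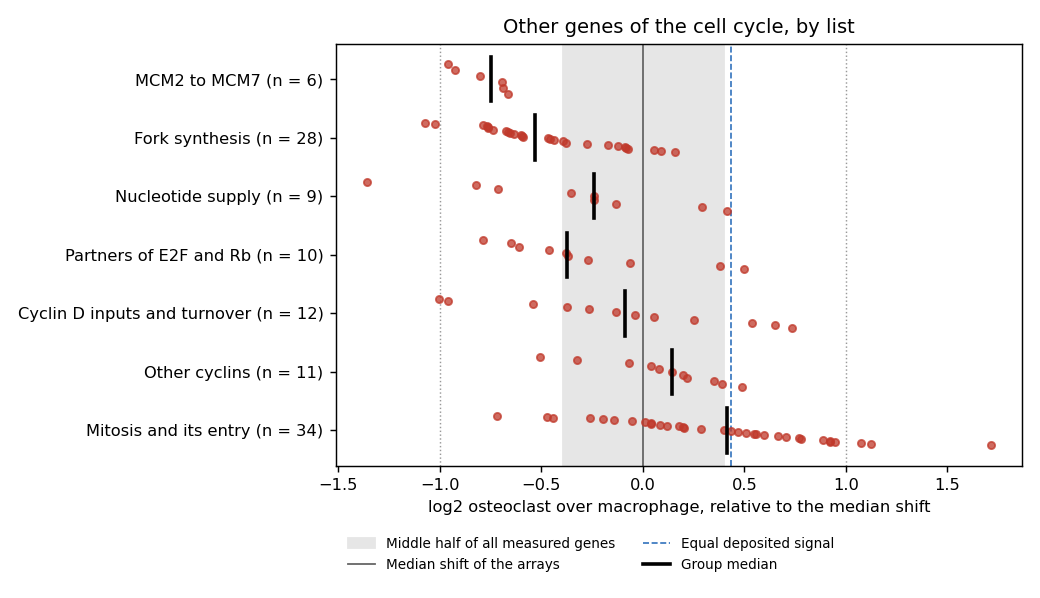
Log2 difference relative to the median shift for genes of 6 cell cycle lists beside the MCM ring; points are genes, bars are medians, and the grey band spans the quartiles of all measured genes. The fork synthesis median is -0.53 and the mitosis median is 0.42.

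Inputs and turnover of cyclin D kinases had a median of -0.087 over 12 genes. Mycn alone reached 2-fold lower, as a bound, since it was below the floor in osteoclasts and had a signal of 39.0 in macrophages, near the floor. Myc, a growth factor response gene, had 685 in osteoclasts and 555 in macrophages (0.73), and Skp2, which marks p27 for breakdown, had 173 in osteoclasts and 456 in macrophages (-0.96), although its probe sets measured in both arrays ran from -0.96 to 0.44. Other cyclins, most of them partners of transcription kinases, had a median of 0.14 over 11 genes, none 2-fold apart, and Ccni and Ccnh differed by 0.22 and 0.080, each the highest of probe sets that reached down to -0.46 and -1.23.

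Markers of other marrow cells were read beside the late cycle genes. Of 10 granulocyte and precursor markers with a probe set, 8 were at least 2-fold higher in osteoclasts, and their summed signal was 6369 in osteoclasts and 3674 in macrophages. The precursor genes Mpo and Elane were dim, with Mpo at 89.3 in osteoclasts and 36.2 in macrophages, Elane at 45.6 in osteoclasts and below the floor in macrophages, and Ctsg likewise at 35.7 in osteoclasts and below the floor in macrophages. Blood progenitor markers had a summed signal of 194 in osteoclasts and 329 in macrophages, with 5 of 7 below the shift. They were dim and did not go 1 way. Kit (21.9) and Myb (20.3) were measured in osteoclasts only, and Cd34 (86.3) in macrophages only. Erythroid markers had a summed signal of 4287 in osteoclasts and 3626 in macrophages, nearly all of it from Tfrc, while Hba-a1, Alas2 and Rhag were below the floor in both arrays. The part of these cells in the values of Ccnb2, Cdc20 and the mitosis genes was not tested.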

How the data were processed

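Gene expression was measured on 1 array of osteoclasts and 1 of macrophages. Biotinylated cRNA was made from 1 µg of total RNA by the one-cycle protocol, per the labels' protocols. The authors deposited intensity values on a linear scale for 45101 probe sets; the sources used here do not give how these were summarised, background-corrected or scaled. Genes were named from the platform annotation, which can be old: 34945 probe sets had 1 symbol, and of these 34741 matched an Entrez identifier in the RefSeq table of assembly GRCm38.p6, with 0 symbols changed. The 64 control probe sets were left out.

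Differences were computed in Python 3.11.15 with numpy 2.4.6 and pandas 2.3.3, as described in the results, and the steps were tested on simulated data. No test was possible with 1 array per group. The number of arrays limits the precision. Alternatives were deposited values, quantile normalization, floors at percentile 20, at percentile 60 and at percentile 95 of 80 probe sets for olfactory or vomeronasal receptors (25.7 in osteoclasts, 28.2 in macrophages), a pseudocount of 16 with no floor, other probe set rules and a 1.5-fold threshold. Genes named from the pathway lists are the 3 in each direction with the largest differences of at least 2-fold per list, or the 2 brightest; Orc, Mcm and other members are all given. Myc, Skp2 and the single markers of cell types were chosen after their values were seen. The members and lists were chosen with earlier results of these data known.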

Additional observations from a re-analysis of the deposited data

How the results depend on the processing

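With 1 array per group no result could be checked against replicates. No paired analysis was possible because each group has a single array. Relative to the shift, 4 of the measured genes described here passed 2-fold upwards in osteoclasts and 8 downwards. As deposited these counts were 0 and 26, and with a 1.5-fold threshold they were 7 and 26, each of 76 genes. Of all measured genes, 3% were higher and 17.5% lower by 2-fold as deposited. At 1.5-fold, 17.2% of all measured genes were higher and 16.9% lower. Under the other 7 alternatives the counts of genes described here lay between 3 and 4 and between 6 and 8. The median difference was -0.25, and it lay between -0.30 and -0.22 under those 7 alternatives and at -0.68 as deposited. Ccnd1, Ccnd2, Cdk14, Cdk20 and E2f7 stayed past 2-fold under all 8 alternatives with a value for single genes, and Cdk2 under the 7 in which it could be read. Ccne1 lost it under both other probe set rules (-0.30 at the smallest), Ccnb2 and Cdk2ap2 lost it as deposited, and Cdk5rap2, Cdk8 and Cdk5r1 lost it under 2, 3 and 3 of them. Of 604 values of single genes under these alternatives, 594 moved by less than the spread between probe sets (SD 0.49) and 10 by more. Among genes past 2-fold, 0 changed direction. Leaving the shift of -0.43 in place moves any gene measured in both arrays by less than that SD. The 30 genes with 1 probe set keep their value under both other probe set rules. Much of the 594 was therefore fixed in advance, and the count does not show how firm single values are.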
